A study of Mus musculus with 6 samples.

Results

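Organic ion carriers and ABC transporters move drugs, conjugates, bile salts, sterols, prostaglandins, carnitine and other small molecules across the membranes of the jejunal epithelium. They were taken here as every gene with an array row of its own whose symbol begins with Slc22a, Slco, Slc47a, Abca, Abcb, Abcc, Abcd or Abcg, and for each gene the row with the highest mean over the 6 arrays was used. This gave 84 members of the 19938 named genes: 40 carriers (23 Slc22a, 15 Slco and 2 Slc47a genes) and 44 ABC genes (16 Abca, 9 Abcb, 10 Abcc, 3 Abcd and 6 Abcg genes). RNA of all epithelial cells prepared from mouse jejunum (the stretch between duodenum and ileum) was hybridised to Affymetrix Gene 1.0 ST arrays. The 3 transgenic animals carried a Musashi transgene under a tetracycline-responsive element (TRE) together with R26-M2rtTA, and the 3 control animals carried R26-M2rtTA without the TRE transgene. All 6 animals drank doxycycline for 24 h, so the activator and the drug were shared by both groups and the transgene was not. R26-M2rtTA is a doxycycline-dependent activator of transcription expressed from the Rosa26 locus, which is active in most cell types, so induction is not limited to the epithelium. The sources used here do not give the age or strain of the animals.

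By the series text the transgene is Msi1, whereas the genotype label of the transgenic samples reads TRE-MSI2::R26-M2rtTA. Msi1 had log2 signals of 12.51, 12.68 and 12.62 on the transgenic arrays, against 6.95, 7.03 and 6.86 on the control arrays. Msi2 had 8.57, 8.08 and 8.01 on the transgenic arrays, against 8.59, 8.71 and 8.62 on the control arrays. The groups did not overlap for either gene. Msi1 was higher by 5.66 (adjusted p = 1.34e-05). Msi2 was lower and did not pass with 6 arrays (-0.42, adjusted p = 0.168). It passed as lower without transgenic replicate 1 (-0.59, adjusted p = 0.0011) and with array weights (-0.53, adjusted p = 0.00238). The weighted estimate lay nearer to the one without that array than to the one with equal weights. Msi2 also passed as lower with a block on the numbers in the sample descriptions (adjusted p = 0.00323). The estimate of that block does not use transgenic replicate 1 either, so the block is no separate check. The gene that was higher in the transgenic arrays was thus Msi1.

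As background, ABC transporters are pumps driven by ATP, most of which carry substrates out of the cell or into an organelle. In enterocytes some of them sit in the brush border and return drugs and plant sterols to the gut lumen, and others sit in the basolateral membrane and pass conjugates or cholesterol towards the blood. The Slc22a and Slco carriers mostly exchange or cotransport organic cations, anions and carnitine without ATP, and Slc47a carriers expel organic cations in exchange for protons.

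Values are log2 signals, differences are transgenic minus control in log2 units, ± is an SD over 3 arrays, and a gene passed at a limma adjusted p under 0.05 with adjustment over all 19938 genes. With 3 arrays in each group, precision is limited by the number of arrays. The array medians lay between 6.27 and 6.34 over all rows. Transgenic replicate 1 stood apart from the rest: its correlation with the other arrays across genes was 0.922 to 0.951, against 0.996 between transgenic replicates 2 and 3 and 0.995 to 0.996 between control arrays. Results that rest on this array are given with and without it for most named members, and for some genes the difference is given only without it. The epithelial marker Epcam was at 11.96 ± 0.14 on the transgenic arrays and 12.04 ± 0.10 on the control arrays. Of the 10 intestinal epithelium markers 1 rose in limma, Cdh1 (0.34, adjusted p = 0.0415), and 0 fell (3 at an unadjusted p under 0.05). Without transgenic replicate 1, Cdh1 rose (0.37) and 3 fell, namely Vil1, Cdx1 and Cdx2 (-0.26, -0.39 and -0.32, adjusted p = 0.0456, 0.0191 and 0.029). The 10 villus enterocyte markers summed, on the linear scale, to 10989, 43905 and 42676 on transgenic replicates 1, 2 and 3, against 50409 to 54364 on the control arrays, and 0 of the 10 passed in limma (2 at an unadjusted p under 0.05). Without transgenic replicate 1, 5 of the 10 fell, among them Sis (-1.17, adjusted p = 6.17e-05), Treh (-1.36, adjusted p = 0.0002) and Slc2a5 (-0.95, adjusted p = 0.000187). Of 9 leukocyte markers 0 passed (2 at an unadjusted p under 0.05), with sums of 1399 to 1670 on the transgenic arrays and 2547 to 3059 on the control arrays. Without transgenic replicate 1, 5 of them fell, among them Lyz2 (-1.65, adjusted p = 0.00018), Cd8a (-0.62, adjusted p = 0.00173) and Ptprc (-0.64, adjusted p = 0.00331), and 1 rose, Itgam (0.71, adjusted p = 0.000477). Of 6 crypt markers 2 fell with 6 arrays and 5 fell without that array. Markers of fibroblasts, smooth muscle, endothelium, glia and neurons, pancreas acini and liver had 0 members that passed (1 at an unadjusted p under 0.05, of fibroblasts), and each of these lists summed to 620 or less on every array. Without transgenic replicate 1, 1 fibroblast marker fell (Dcn, -0.59, adjusted p = 0.0209) and 1 liver marker rose (Ttr, 0.40, adjusted p = 0.0427). Their part in the results was not tested. In RNA from whole preparations, fewer cells of a type and less RNA per cell cannot be told apart.

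Of the 84 members 10 passed, or 11.9%, which is the share among all genes tested (11.9%). Of these, 9 fell (10.7% of members, against 5.84% of all genes) and 1 rose (1.19% of members, against 6.04% of all genes). The median difference of the members was -0.07, against -0.04 over all genes. The groups did not overlap for 31 members (36.9%, against 34.2% of all genes). A difference of less than 0.25 in either direction was found for 49 of the 84 members and for 12490 of the 19938 genes. When the dimmest 40% of all genes were left out of the fit, 40 members remained and 9 of them passed (22.5%, against 19.6% of all genes in that fit). The 44 dimmer members include all measured Slco1 and Slco6 genes and the kidney and liver carriers Slc22a6, Slc22a7 and Slc22a8, and 1 of the 44, Abca14, passed in the fit of all genes. Without transgenic replicate 1, 23 members passed (27.4%, against 28.6% of all genes), with 19 lower (22.6% of members, against 14.5% of all genes) and 4 higher (4.76% of members, against 14.0% of all genes). All 10 members that passed with 6 arrays were among these 23.

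**Figure D1:**
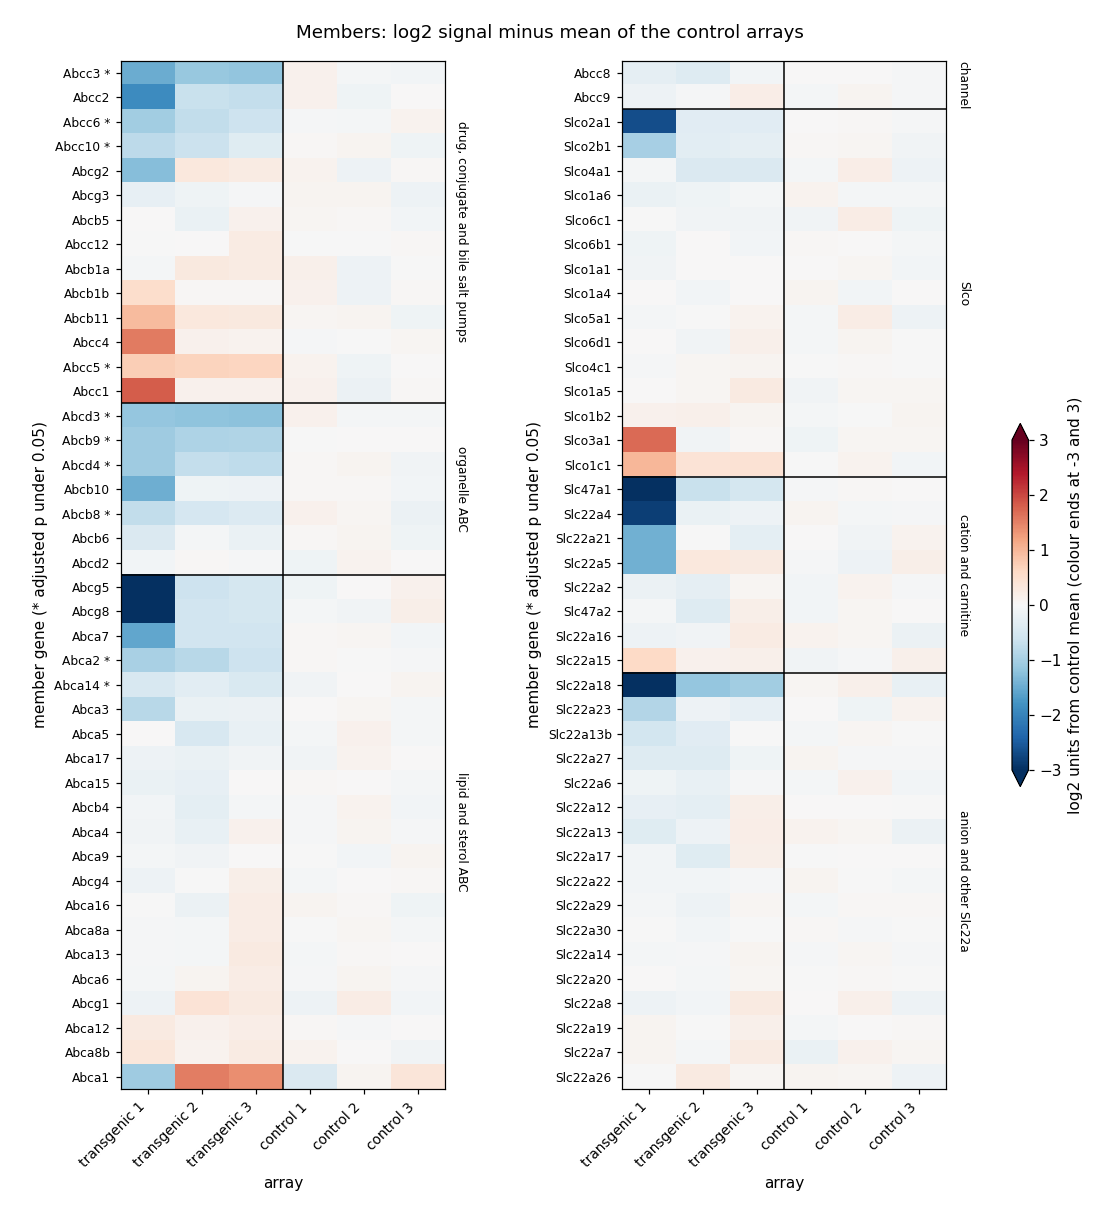
Heat map of the 84 members, grouped by role, with the log2 signal of each array (columns, transgenic left of the line and control right of it) minus the mean of the control arrays; blue is lower, red is higher, and an asterisk marks the 10 members that passed. Transgenic replicate 1 has the deepest colours, at -4.09 for Slc47a1 and 1.81 for Abcc1, while the falls of Abcc3, Abcd3 and Abcb9 have similar depth on all 3 transgenic arrays.

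Among the 14 measured pumps for drugs, conjugates and bile salts 3 fell (21.4%, against 5.84% of all genes). Another 1 rose (7.14%, against 6.04% of all genes) and 10 did not pass. Of the 14, 9 stayed in when the dimmest 40% of genes were left out, a fit in which 19.6% of the genes kept passed. Abcc3, a basolateral pump that passes glucuronide conjugates and bile salts towards the blood, had signals of 7.73, 8.09 and 8.02 on the transgenic arrays, against 9.34, 9.15 and 9.14 on the control arrays. It lay more than 1 log2 unit lower on every transgenic array than on any control array, and the groups averaged 7.95 ± 0.19 and 9.21 ± 0.11. The fall was 1.27 (-1.27, SE 0.123, adjusted p = 0.00343), or 2.41-fold, the largest among the members that passed. Abcc6, known from liver, where its loss in humans causes pseudoxanthoma elasticum, had 5.98, 6.29 and 6.40 on the transgenic arrays, against 6.99, 6.96 and 7.12 on the control arrays. It differed by -0.80 (SE 0.129, adjusted p = 0.0145) with no overlap, and its call was lost without any 1 control array (adjusted p up to 0.0721). Abcc10, a drug efflux pump, averaged 7.27 ± 0.22 on the transgenic arrays and 7.87 ± 0.11 on the control arrays, a difference of -0.60 (SE 0.133, adjusted p = 0.0385). Its call was lost without transgenic replicate 2 or any 1 control array (adjusted p up to 0.154).

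Abcc5 was the member that rose. This exporter of cyclic nucleotides and other organic anions had 7.43, 7.35 and 7.33 on the transgenic arrays, against 6.80, 6.57 and 6.71 on the control arrays. Every transgenic array lay above every control array, by a difference of 0.68 (SE 0.0919, adjusted p = 0.00856), or 1.60-fold. Within the Abcc genes, the row of Abcc5 and that of Abcc3 thus moved in opposite directions on all 3 transgenic arrays.

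The apical pumps that limit drug uptake did not pass with 6 arrays. Abcb1a, the main intestinal P-glycoprotein of the mouse, had 10.5, 10.85 and 10.8 on the transgenic arrays, against 10.73, 10.41 and 10.55 on the control arrays, and the groups overlapped (difference 0.15, adjusted p = 0.573). Its neighbour Abcb1b, the other mouse P-glycoprotein, differed by 0.20 (adjusted p = 0.541). Abcg2, a pump for drugs, dietary compounds and urate, had 8.63 on transgenic replicate 1 and 10.22 and 10.16 on replicates 2 and 3, against 10.02, 9.77 and 9.95 on the control arrays. Transgenic replicate 1 lay below all controls and the other transgenic arrays above them, so the difference was -0.24 with 6 arrays (adjusted p = 0.802) and 0.28 without that array (adjusted p = 0.0739). Abcc2, the apical counterpart of Abcc3 for conjugates, had 9.48, 10.72 and 10.66 on the transgenic arrays, against 11.5, 11.23 and 11.39 on the control arrays. All transgenic arrays lay below the controls, but the difference of -1.09 did not pass (adjusted p = 0.102). Without transgenic replicate 1 it was -0.68 and passed (adjusted p = 0.00124).

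Abcc1 and Abcc4 were high on transgenic replicate 1. Abcc1, a basolateral pump for glutathione conjugates and leukotrienes, had 8.64 on that array, 6.96 and 6.97 on transgenic replicates 2 and 3, and 6.97, 6.67 and 6.87 on the control arrays. Abcc4, which exports cyclic nucleotides and prostaglandins, had 7.91 there, 6.48 and 6.46 on transgenic replicates 2 and 3, and 6.31, 6.35 and 6.40 on the control arrays. Neither passed with or without that array (differences 0.69 and 0.60 with it, 0.13 and 0.12 without it). Abcb11, the bile salt export pump of liver, was a dim row at 6.2, 5.57 and 5.53 on the transgenic arrays, against 5.30, 5.32 and 5.12 on the control arrays, and did not pass with 6 arrays (0.52, adjusted p = 0.166). It passed as higher without transgenic replicate 1 (0.30, adjusted p = 0.0457) and with array weights (0.33, adjusted p = 0.0468). The weighted estimate lay nearer to the one without that array than to the one with equal weights.

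**Figure D2:**
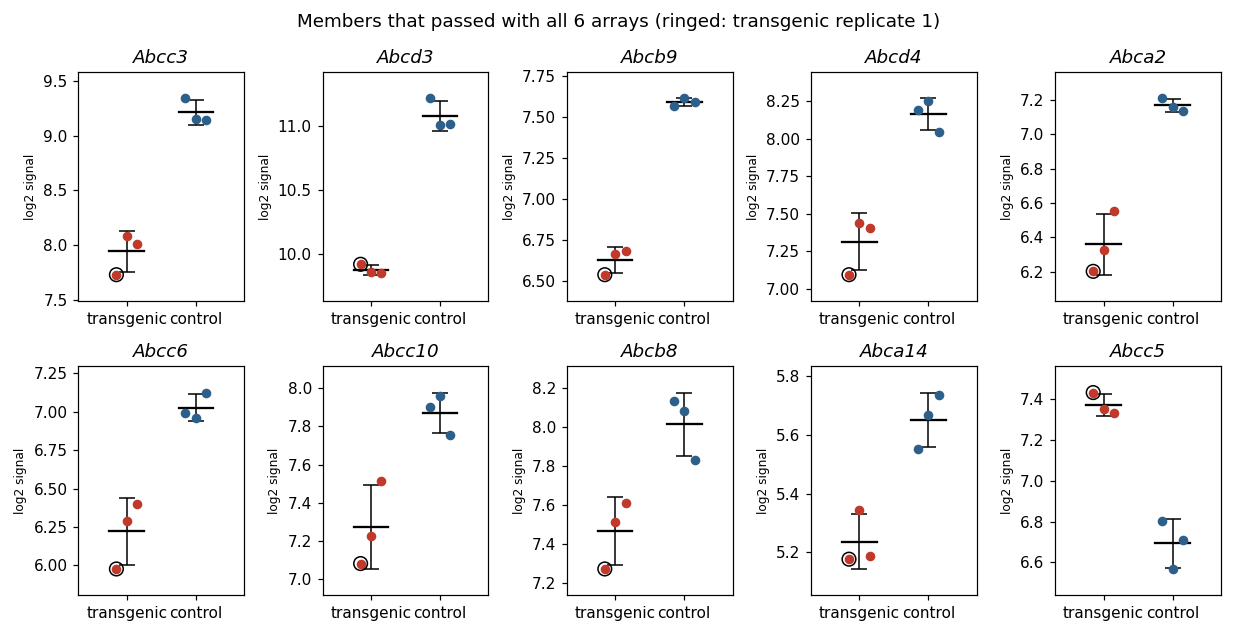
Log2 signals of the 10 members that passed, transgenic left and control right in each panel; points are arrays, bars the mean and SD of 3 arrays, and rings mark transgenic replicate 1. The groups do not overlap in any panel; 9 members are lower and Abcc5 is higher in the transgenic arrays. Each panel has its own axis, which does not start at 0.

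The Abcd genes and Abcb6, Abcb8, Abcb9 and Abcb10, transporters of peroxisomes, lysosomes and mitochondria, gave 4 of the 9 falls, with the lysosomal Abca2 counted among the lipid transporters instead. Of the 7 measured, 4 fell (57.1%, against 5.84% of all genes), 0 rose and 3 did not pass, with a median difference of -0.58, against -0.04 over all genes. The groups did not overlap for 5 of them (71.4%, against 34.2% of all genes). Without transgenic replicate 1 the median was -0.45 and 4 fell (57.1%, against 14.5% of all genes). These shares over all genes include dim genes, whereas 6 of the 7 stayed in when the dimmest 40% were left out. In that fit of 6 arrays 19.6% of the genes kept passed in either direction. Abcd3, which brings branched-chain fatty acids and bile acid precursors into peroxisomes, had 9.92, 9.86 and 9.85 on the transgenic arrays, against 11.22, 11.01 and 11.02 on the control arrays. The 3 transgenic arrays lay within 0.1 of one another and more than 1 log2 unit below every control. The fall was 1.20 (-1.20, SE 0.0899, adjusted p = 0.0017), or 2.30-fold. Abcb9, a peptide transporter of the lysosomal membrane, had 6.54, 6.66 and 6.68 on the transgenic arrays, against 7.57, 7.62 and 7.59 on the control arrays, a difference of -0.97 (SE 0.0788, adjusted p = 0.00206) or 1.95-fold, with transgenic replicate 1 close to the other transgenic arrays.

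Abcd4, which in human cells takes part in the export of vitamin B12 from lysosomes, had 7.10, 7.44 and 7.41 on the transgenic arrays, against 8.19, 8.25 and 8.04 on the control arrays. The difference was -0.85 (SE 0.122, adjusted p = 0.0101), and the call was lost without control replicate 1 or 2 (adjusted p up to 0.0615). Abcb8, of the inner mitochondrial membrane, averaged 7.47 ± 0.17 on the transgenic arrays and 8.02 ± 0.16 on the control arrays (difference -0.55, adjusted p = 0.0462). With 1 array left out it passed when that array was transgenic replicate 1 and not when it was any other (adjusted p up to 0.182). The 3 others did not pass: Abcb10, a mitochondrial transporter of erythroid and other cells, was at 7.04 on transgenic replicate 1 and at 8.36 to 8.37 on replicates 2 and 3, against 8.42 to 8.55 on the control arrays, and Abcb6 and the dim peroxisomal Abcd2 differed by -0.23 and -0.03.

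Of the 21 ABC transporters of lipids and sterols 2 fell (9.52%, against 5.84% of all genes), 0 rose and 19 did not pass. Their median was -0.07, against -0.04 over all genes. Abca2, a lysosomal lipid transporter best known from myelin-forming cells, had 6.20, 6.33 and 6.55 on the transgenic arrays, against 7.21, 7.16 and 7.14 on the control arrays. It differed by -0.81 (SE 0.109, adjusted p = 0.00846), and the call was lost without control replicate 1 or 2 (adjusted p up to 0.0555). Abca14, a dim row, differed by -0.41 (adjusted p = 0.0382) and passed in no fit that left out an array other than transgenic replicate 1 (adjusted p up to 0.15). Abca7, a phospholipid transporter, had 6.33, 7.32 and 7.32 on the transgenic arrays, against 7.93, 7.95 and 7.82 on the control arrays. It did not pass with 6 arrays (-0.91, adjusted p = 0.0963) and fell without transgenic replicate 1 (-0.58, adjusted p = 0.00128).

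Abcg5 and Abcg8 form the heterodimer that returns plant sterols and cholesterol to the gut lumen. Abcg5 had 8.45 on transgenic replicate 1 and 11.28 and 11.37 on replicates 2 and 3, against 11.78, 11.9 and 12.02 on the control arrays. Abcg8 had 7.72, 10.5 and 10.57 on the same transgenic arrays, against 11.02, 10.99 and 11.25 on the control arrays. Both genes lay lower on every transgenic array than on any control, and transgenic replicate 1 lay at -3.46 and -3.37 relative to the control means. With 6 arrays neither passed (-1.54 and -1.49, adjusted p = 0.301 and 0.306), and without transgenic replicate 1 both fell (-0.58 and -0.55, adjusted p = 0.00265 and 0.00409), Abcg5 by 1.49-fold and Abcg8 by 1.47-fold. The genes are divergent neighbours on chromosome 17, and RefSeq (GRCm38.p6) places 109 bases between their start sites.

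Abca1, which hands cholesterol to apolipoprotein A-I at the basolateral membrane, split the transgenic arrays. It had 6.96 on transgenic replicate 1 and 9.56 and 9.42 on replicates 2 and 3, against 7.58, 8.11 and 8.38 on the control arrays. Transgenic replicate 1 lay below all controls and replicates 2 and 3 above them. The difference did not pass with 6 arrays (0.62, SE 0.711, adjusted p = 0.682), and Abca1 rose by 1.47 without transgenic replicate 1 (SE 0.203, adjusted p = 0.000919), or 2.76-fold. Its control SD of 0.41 was the highest of any member. Abcg1, another sterol exporter, had 6.66, 7.22 and 7.09 on the transgenic arrays, against 6.66, 7.04 and 6.74 on the control arrays, and did not pass with or without replicate 1 (0.18 and 0.34). Abcb4, the phosphatidylcholine floppase of bile, was dim and differed by -0.14 (adjusted p = 0.487).

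The sequences before the start sites are shown for 3 loci because Abcg5 and Abcg8 flank a shared interval and had similar differences, Abca1 moved the other way on 2 arrays, and Abcd3 had the smallest adjusted p of all members. They are RefSeq sequences of GRCm38.p6, written 5′ to 3′: the interval chr17:84683012-84683120 on the plus strand between Abcg5 (which runs to the left) and Abcg8, and the 250 bases before the outermost listed start for Abca1 (chr4:53159896-53160145, minus strand) and Abcd3 (chr3:121815303-121815552, minus strand). Capitals mark matches on either strand to 3 motifs: AGGTCA (a nuclear receptor half-site), CACGTG (an E-box) and GGGCGG (a GC box).
Abcg5-Abcg8: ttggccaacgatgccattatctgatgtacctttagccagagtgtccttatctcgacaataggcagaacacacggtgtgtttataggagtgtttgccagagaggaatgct
Abca1: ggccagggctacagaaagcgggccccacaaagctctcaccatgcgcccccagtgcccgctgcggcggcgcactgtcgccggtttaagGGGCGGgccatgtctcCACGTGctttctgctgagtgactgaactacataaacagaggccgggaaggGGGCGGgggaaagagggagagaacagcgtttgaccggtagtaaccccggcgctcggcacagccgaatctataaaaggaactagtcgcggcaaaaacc
Abcd3: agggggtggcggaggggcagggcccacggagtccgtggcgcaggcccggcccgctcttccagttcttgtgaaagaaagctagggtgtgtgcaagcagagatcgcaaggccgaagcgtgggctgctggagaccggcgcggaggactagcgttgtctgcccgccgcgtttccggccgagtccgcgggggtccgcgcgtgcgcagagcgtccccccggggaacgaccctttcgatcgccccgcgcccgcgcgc
The Abca1 window held 1 E-box and 2 GC boxes, none of which overlap, and no match to AGGTCA. Only these exact letters were searched, so half-sites that differ from them by a base are not marked. The Abcg5-Abcg8 interval and the Abcd3 window held no match to any of the 3. Of 32851 promoter windows in the table, 14% held the half-site in the 250 bases before the start, 6.02% the E-box and 32.7% the GC box, and of the 79 windows of 68 members 15.2%, 7.59% and 31.6% did. In windows of 109 bases the shares over the table were 6.39%, 3.38% and 25.6%. A match is a description of letters and does not show a bound site, and the lack of a match does not show that no site is there.

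Of the 15 Slco genes, which carry organic anions, prostaglandins and hormones, 0 passed in the limma fit of 6 arrays, with a median of -0.02 (2 had an unadjusted p under 0.05). Slco2a1, the prostaglandin transporter, had 7.93 on transgenic replicate 1 and 10.23 and 10.24 on replicates 2 and 3, against 10.58, 10.62 and 10.53 on the control arrays. It lay below all controls on each transgenic array and fell without replicate 1 (-0.34, adjusted p = 0.0131; with 6 arrays -1.11, adjusted p = 0.354). Slco2b1, a carrier of conjugated steroids and drugs, had 7.14, 7.82 and 7.88 on the transgenic arrays, against 8.18, 8.21 and 8.04 on the control arrays, and did not pass with 6 arrays (-0.53, adjusted p = 0.174). It passed as lower without replicate 1 (-0.30, adjusted p = 0.0386) and with array weights (-0.35, adjusted p = 0.032). The weighted estimate of Slco2b1 lay nearer to the one without that array than to the one with equal weights. Slco4a1, a carrier of thyroid hormone and prostaglandins, was not low on replicate 1, at 7.44, 7.05 and 7.06 on the transgenic arrays, against 7.44, 7.69 and 7.34 on the control arrays. It did not pass with 6 arrays (-0.31, adjusted p = 0.282) and fell without replicate 1 (-0.43, adjusted p = 0.0199).

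Slco3a1, a widely expressed carrier of prostaglandins, had 9.28 on transgenic replicate 1, 7.48 and 7.61 on transgenic replicates 2 and 3, and 7.46, 7.65 and 7.64 on the control arrays. It was the Slco gene highest on replicate 1, and differed by 0.54 with 6 arrays (adjusted p = 0.575) and by -0.04 without that array. Slco1c1, a thyroxine carrier best known from brain vessels, was dim at 5.95, 5.35 and 5.39 on the transgenic arrays, against 4.93, 5.04 and 4.86 on the control arrays. It did not pass with 6 arrays (0.62, adjusted p = 0.0799) and rose without replicate 1 (0.42, adjusted p = 0.0074). Slco1a4 and Slco1a5, of a cluster of similar genes in which probes may share signal, were at the low end of the scale and differed by -0.02 and 0.11.

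**Figure D3:**
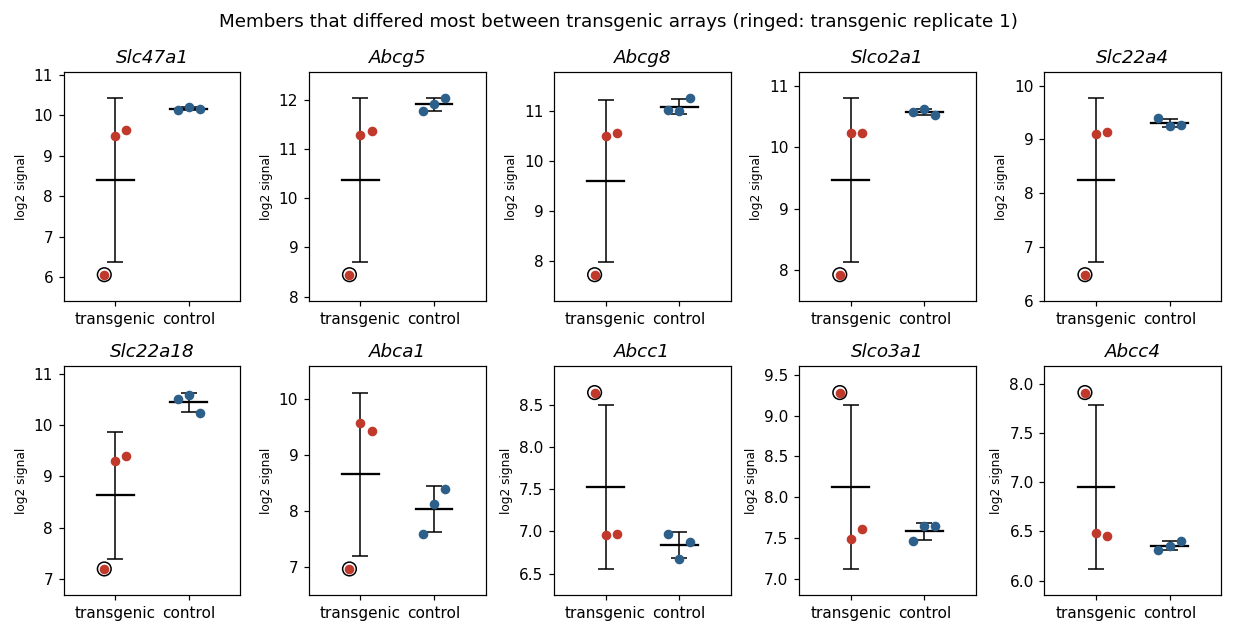
Log2 signals of 10 members chosen, after their values were seen, for their spread among transgenic arrays, transgenic left and control right; points are arrays, bars the mean and SD of 3 arrays, and rings mark transgenic replicate 1. The 10 are not those with the largest spread: Slc22a5 and Abcg2 (SD 1.00 and 0.90) are not shown, and Abcc4 (SD 0.83) is. Transgenic replicate 1 is lowest in the first 7 panels, at 6.07 for Slc47a1 beside 9.48 and 9.64 on replicates 2 and 3. It is highest for Abcc1, Slco3a1 and Abcc4. Each panel has its own axis, which does not start at 0.

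Of the 8 carriers of organic cations and carnitine 0 passed in the limma fit of 6 arrays (0 at an unadjusted p under 0.05), with a median of -0.21. Slc47a1, the proton-coupled exporter of organic cations, had 6.07 on transgenic replicate 1 and 9.48 and 9.64 on replicates 2 and 3, against 10.12, 10.19 and 10.16 on the control arrays. The first value lay at -4.09 relative to the control mean, the lowest of any member on any array. Slc47a1 did not pass with 6 arrays (-1.76, adjusted p = 0.33) and fell without replicate 1 (-0.59, adjusted p = 0.00128), or 1.51-fold. Slc22a4, the ergothioneine carrier, had 6.48, 9.10 and 9.14 on the transgenic arrays, against 9.40, 9.25 and 9.27 on the control arrays. It did not pass with 6 arrays (-1.06, adjusted p = 0.445) or without replicate 1 (-0.19, adjusted p = 0.17).

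Slc22a5, the carnitine carrier, had 8.22 on transgenic replicate 1 and 9.98 and 9.91 on replicates 2 and 3, against 9.62, 9.51 and 9.83 on the control arrays. Like Abcg2 it was below the controls on the first array and above them on the others, and it did not pass with that array (-0.28, adjusted p = 0.791) or without it (0.29, adjusted p = 0.0849).

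Of the 17 organic anion carriers and other Slc22a genes 0 passed in the limma fit of 6 arrays (2 at an unadjusted p under 0.05), with a median of -0.06, and 13 differed by less than 0.25. Slc22a18, an imprinted gene for a carrier whose substrates are little known, had 7.19, 9.29 and 9.40 on the transgenic arrays, against 10.51, 10.59 and 10.23 on the control arrays. Each transgenic array lay below every control. The difference of -1.82 was the largest fall in mean signal of any member but did not pass (SE 0.589, adjusted p = 0.113), and without replicate 1 it was -1.10 and passed (SE 0.118, adjusted p = 0.000266), or 2.14-fold. The kidney carriers Slc22a6, Slc22a8 and Slc22a12 and the liver carrier Slc22a7 differed by -0.13, 0.01, -0.12 and 0.08. The channel regulators Abcc8 and Abcc9, subunits of potassium channels, did not pass (-0.25 and 0.00).

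The transgenic arrays can be read separately. Of the 84 members, 18 lay at least 1 log2 unit below the control mean and 4 at least 1 above it on transgenic replicate 1, against 3 below and 1 above on each of replicates 2 and 3. Over all genes the same counts were 1429 below and 1592 above on replicate 1, 468 and 565 on replicate 2, and 503 and 412 on replicate 3. The 3 that lay at least 1 below on replicates 2 and 3 were Abcd3, Abcc3 and Slc22a18, which did so on replicate 1 as well, and the 1 above was Abca1. Besides the 10 that passed with all arrays, 13 members passed without replicate 1, namely Slc22a18, Abca1, Abcc2, Abca7, Slc47a1, Abcg5, Abcg8, Slco1c1, Slco2a1, Slco4a1, Slco2b1, Abcb11 and Abca5, the last named after its value was seen (-0.35, adjusted p = 0.0424). With all arrays kept but weighted, 9 of the 13 passed. For Abca1 and Slc22a18 the weighted estimates (1.53 and -1.23) lay nearer to those without replicate 1 (1.47 and -1.10) than to those with equal weights (0.62 and -1.82). The weighted fit is thus no separate check. With a block on the numbers in the descriptions 8 passed, but the estimates of that fit rest on replicates 2 and 3 of each group. It thus leaves out transgenic replicate 1 as well and is no separate check. Slco2a1 passed in neither of these fits. The 10 villus enterocyte markers had a median of -2.75 on replicate 1 relative to the control mean and -0.24 on the mean of replicates 2 and 3, beside which Slc47a1, Abcg5, Abcg8, Slco2a1 and Slc22a4 lay at -4.09, -3.46, -3.37, -2.65 and -2.82 on replicate 1. The part of enterocyte number in these values was not tested.

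**Figure D4:**
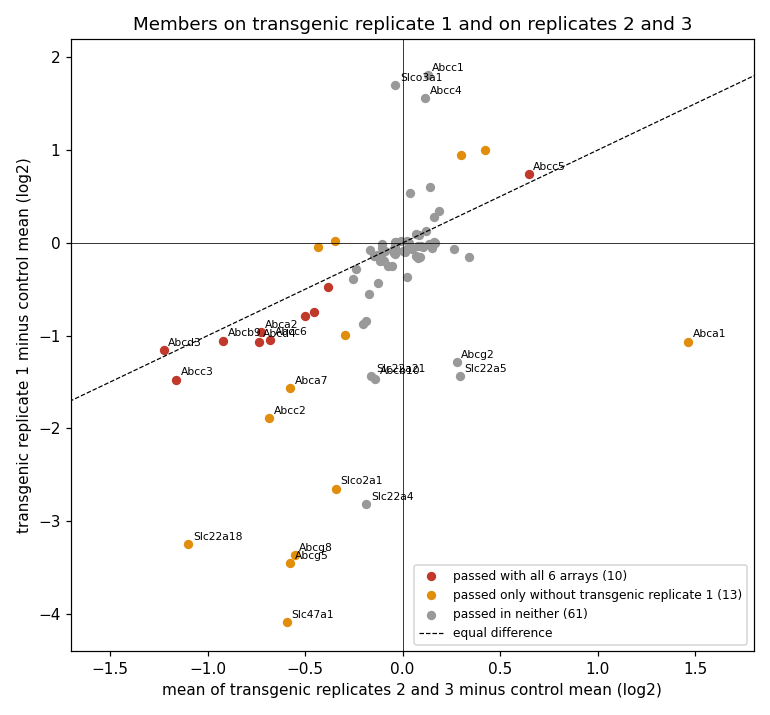
Each point is 1 of the 84 members, with the mean of transgenic replicates 2 and 3 minus the control mean on the horizontal axis and transgenic replicate 1 minus the control mean on the vertical axis, both in log2 units. Members that passed with all arrays lie near the dashed line of equal differences, Slc47a1, Abcg5, Abcg8 and Slc22a18 lie far below it, and Abca1 lies at 1.47 on the horizontal axis and -1.07 on the vertical axis.

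Genes that work with these transporters were taken from 3 lists. Of 12 measured transcriptional regulators of transporters 1 rose and 1 fell. Nr1h4, the bile acid receptor FXR, had 10.05, 10.06 and 9.96 on the transgenic arrays, against 8.57, 8.43 and 8.8 on the control arrays, and rose by 1.42 (SE 0.114, adjusted p = 0.00196). Rxra, the partner receptor of FXR, PXR and the liver X receptors, had 7.06, 8.03 and 8.06 on the transgenic arrays, against 9.23, 9.21 and 9.21 on the control arrays, and fell (-1.50, SE 0.272, adjusted p = 0.0211). Nr1i2, the drug sensor PXR, did not pass with 6 arrays (-0.23) and rose without replicate 1 (0.33, adjusted p = 0.0401). Nr1i3, the related sensor CAR, did not pass (-1.53, adjusted p = 0.248) and fell without replicate 1 (-0.67, adjusted p = 0.00119). In that fit 2 of the 12 regulators rose and 4 fell, among the latter also Esrra (-0.77, adjusted p = 0.00263) and Cdx2 (-0.32, adjusted p = 0.029).

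Of 7 scaffold proteins and their partners 0 passed in limma (2 at an unadjusted p under 0.05). Without replicate 1 Pdzk1 and Slc9a3r1, which hold transporters at the apical membrane, fell (-0.67 and -0.56, adjusted p = 0.00054 and 0.00117). Of 14 other transporters and acceptors of bile acids, sterols, peptides and drugs 1 rose and 1 fell. Slc10a2, which takes bile acids up from the lumen, had 8.43, 10.06 and 9.95 on the transgenic arrays, against 5.80, 5.96 and 6.19 on the control arrays, and rose (3.49, adjusted p = 0.00677). Atp8b1, a phospholipid flippase of the apical membrane, fell (-0.50, SE 0.0766, adjusted p = 0.0127). The basolateral bile acid carrier has 2 subunits, and without replicate 1 Slc51a fell (-1.12, adjusted p = 0.000248) while Slc51b rose (1.14, adjusted p = 9.91e-05), with neither passing in 6 arrays. Npc1l1, which takes cholesterol up opposite to Abcg5 and Abcg8, had 9.33, 11.86 and 11.95 on the transgenic arrays, against 12.5, 12.46 and 12.53 on the control arrays, and passed as lower without replicate 1 (-0.59, adjusted p = 0.000965) but not with 6 arrays. Without replicate 1, 3 of the 14 rose and 5 fell. These include Cftr as higher (0.45, adjusted p = 0.00959), and Tap1 and Scarb1 as lower (-1.04 and -0.56, adjusted p = 0.000151 and 0.0113). As background, FXR is known to regulate several bile acid transporters.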

How the data were processed

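RNA of the 6 jejunal epithelial preparations, 250 ng per array per the labels' protocols, was measured on Affymetrix gene arrays. The authors deposited log2 values, and the submitters' processing notes name RMA and Partek 6.5 without settings. RMA evens out the arrays' distributions, so a change in total RNA cannot show, and it compresses dim signals. Columns were mapped to samples by accession and grouped by title. Rows with 1 gene symbol in the platform annotation (21789 of 35399) were kept, the brightest row per gene, which left 19938 genes. All 84 members matched a RefSeq table (GRCm38.p6) by Entrez ID. Of the members, Abcb5 alone had 2 rows, and 1 further row, shared by Slc22a28, Slc22a29 and Slc22a30, was not used.

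The test was limma 3.58.1 under R 4.3.3, with lmFit, eBayes and Benjamini-Hochberg adjustment over all genes, and was itself tested on simulated data. The series text calls the samples animals, so arrays were taken as biological replicates. Members, role groups and lists were chosen with earlier results of these data known. Named were members that passed, 23 carriers and pumps known from intestine or bile, up to 8 that passed without transgenic replicate 1 but not with 6 arrays, Msi1 and Msi2, and genes of the related lists. Alternatives were other normalizations, a filter on dim genes, replicate blocks, other variance models, array weights, other row choices, a looser threshold and each array left out.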

Additional observations from a re-analysis of the deposited data

How the results depend on the processing

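With each array left out in turn, 1 to 4 members rose (1 with all arrays) and 3 to 19 fell (9 with all arrays). The most, 4 and 19, came without transgenic replicate 1, and the fewest falls, 3, without control replicate 1 or 2 (5 without control replicate 3). Over all 19938 genes 2368 passed with all arrays and 5700 without transgenic replicate 1. Without control replicates 1, 2 and 3 the counts over all genes were 683, 728 and 879. The member counts thus largely moved with those over all genes. Abcd3, Abcb9, Abcc3 and Abcc5 passed in each of these fits. Array weights gave 5 that rose and 17 that fell, with 5770 of all genes passing. An adjusted p under 0.1 gave 2 that rose and 10 that fell. A replicate block on the numbers in the titles left 0 that rose (Abcc5 adjusted p = 0.0539) and 3 that fell (Abcb9, Abcc3 and Abcd3). In that fit 733 of all genes passed. A replicate block on the numbers in the descriptions gave 2 and 14, with 4019 of all genes passing. In that block transgenic replicate 1 and control replicate 1 share no number with another array. Its estimates thus rest on replicates 2 and 3 of each group. The numbers are not shown to pair the arrays: deviations of same-numbered arrays correlated at -0.17 to -0.07, and no array correlated best with its own number. The other alternatives, named in the processing section, kept 1 that rose and 6 to 9 that fell, with 1818 to 2415 of all genes passing. The median difference (-0.07) moved to -0.42 when the dimmest 40% of genes, and with them 44 members, were left out. Among named members, 4 changed sign, none of which passed. Abcg2 ran from -0.52 to 0.28 with an array left out (0.28 without transgenic replicate 1), and was 0.33 with the description block and 0.18 with array weights. Slc22a5 ran from -0.59 to 0.29, and was 0.28 and 0.23 with those. Slco3a1 ran from -0.037 to 0.86 and was -0.10 with the description block. Slco1a4, near 0, ran from -0.068 to 0.022 (0.008 without transgenic replicate 2), and was 0.016 with equal array medians and 0.0036 with the description block. The causes were not tested. Dim rows, 44 of the 84, have compressed differences.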

Other observations

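The other row of Abcb5, which was not used for the gene, lay at 3.68, 3.78 and 3.90 on the transgenic arrays, against 3.93, 3.87 and 3.89 on the control arrays, and the row used lay at 4.61, 4.41 and 4.73, against 4.65, 4.65 and 4.51. The groups overlapped on both rows.

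Of 6 crypt markers 2 fell, Olfm4 (-3.37, adjusted p = 0.000931) and Ascl2 (-1.03, adjusted p = 0.0142), and their linear signals summed to 5848, 3112 and 3011 on transgenic replicates 1, 2 and 3, against 6413 to 7695 on the control arrays. Replicate 1, on which the most transporters lay far from the controls, was thus the transgenic array nearest to the controls in this sum. Opposite departures offset one another in it. On replicate 1 Lgr5, Mki67, Top2a and Pcna lay above every control, at 8.56, 10.33, 9.61 and 11.53. Olfm4 and Ascl2 lay below every control there, at 8.61 and 5.84. Without replicate 1, 5 of the 6 fell, with Lgr5 at -1.04 (adjusted p = 0.000269), Mki67 at -0.97 (adjusted p = 0.000124) and Top2a at -0.99 (adjusted p = 0.000883). Of 4 ileal enterocyte markers 1 rose, Slc10a2, and Fabp6, the bile acid binding protein of the ileum, did not pass (0.08, adjusted p = 0.952). Fabp6 had 4.83, 5.73 and 5.46 on the transgenic arrays, against 4.82, 6.44 and 4.52 on the control arrays, so control replicate 2 was the highest of all arrays.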
